A study of Mus musculus with 8 samples.

Results

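The genes described here are 10 mouse genes of the NRF2 antioxidant and detoxification programme, chosen by name: Nfe2l2, Hmox1, Nqo1, Gclc, Gclm, Gsr, Txn1, Txnrd1, Srxn1 and Ephx1. Each was followed through the probe sets whose platform annotation gave that gene symbol and no other. This gave 18 of 22626 probe sets, and 10 of the 12393 genes that had such a probe set. A gene was represented by the brightest of its probe sets that passed a filter on brightness, and 9 of the 10 genes passed. Nqo1 was too dim to be tested.

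NRF2, the protein encoded by Nfe2l2, is a basic leucine zipper transcription factor. In unstressed cells the sensor protein KEAP1 hands it to a ubiquitin ligase and it is degraded. Oxidants and electrophiles modify cysteines of KEAP1, NRF2 accumulates, pairs with a small MAF protein and binds antioxidant response elements near genes that make glutathione, reduce thioredoxin, break down heme and detoxify reactive compounds. Skeletal muscle produces oxidants when it contracts, and the pathway is known there for its part in adaptation to exercise. Because NRF2 is controlled largely through its stability, the mRNA signals given here say nothing of the amount of the protein.

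The samples were C2C12, myoblasts of an established mouse line that form myotubes in low serum. All cultures were differentiated in DMEM with 2% horse serum and fed up to day 4. Control cultures went on being fed at intervals of 48 h, while starved cultures were left in their medium for 4 days (the labels name no single nutrient as withdrawn), and RNA of both was taken on day 8. Each group had 4 arrays, lettered A to D for controls and E to H for starved cells. The labels do not say that the samples of a group came from separate cultures, so p-values measure only the spread among these samples, and that spread may be technical. The labels place the comparison, which asks how the mRNAs of unfed myotubes differ from those of fed myotubes, under muscle atrophy.

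The deposited signals are intensities on a linear scale. The values below are normalized log2 signals, obtained by adding an offset of 10.9 intensity units, taking log2 and bringing the 8 arrays to the same distribution (quantile normalization). Fold changes are starved minus control on that log2 scale, with standard errors from limma and n = 4 arrays per group, and they understate the change of dim genes. Adjusted p-values were obtained by the Benjamini-Hochberg method across the 13575 tested probe sets, with 0.05 as the threshold.

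The trimmed mean intensity ran from 243 to 455 between arrays, and the starved arrays were dimmer by 0.38 on the log2 scale, which missed the threshold in an exact permutation test (two-sided, p = 0.0857, smallest possible p = 0.0286). With the arrays left unscaled, the median log2 fold change of all probe sets moved from 0.02 to -0.33. Control B stood apart, with its Gapdh 3' probe set above the 5' probe set by 1.40 log2 units, against -0.23 to -0.04 on the other 7 arrays. All 17 myotube markers were bright enough to be tested, 1 of which rose (Actn2) and 2 fell (Actn3 and Des), and their summed unscaled intensity was 123460 to 154165 in controls and 99156 to 126770 in starved arrays. Among 9 tested fibroblast and smooth muscle markers 5 fell and 1 rose, with sums of 22406 to 31237 in controls and 14089 to 20636 in starved arrays. Of 8 tested markers of undifferentiated or cycling myoblasts 1 rose (Id3) and 1 fell (Cdk1). The sums of that list were 2625.6 to 3921.1 in controls and 2363.1 to 3154.5 in starved arrays. Over all genes tested 4.25% rose and 6.93% fell. The samples were C2C12, and signals of the fibroblast and smooth muscle list do not show that such cells were present. The part of these marker changes in the results below was not tested. In bulk RNA fewer cells of a type and less RNA per cell cannot be told apart.

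The 10 genes did not move together in starved myotubes. Hmox1, which breaks down heme, and Ephx1, which hydrolyses reactive epoxides, rose about as much as each other, by 1.13 ± 0.22 and 1.05 ± 0.10 on the log2 scale. Txnrd1, the cytosolic thioredoxin reductase, rose by 0.36 ± 0.10, close to the threshold. Its substrate Txn1 fell by 0.73 ± 0.06 in its brightest probe set, while its other tested probe set stood at 0.30 ± 0.17 and did not pass. Nfe2l2 itself, the genes of glutathione synthesis Gclc and Gclm, glutathione reductase Gsr and the brightest probe set of Srxn1 did not pass.

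In all, 3 of the 9 tested genes rose, 1 fell and 5 missed the threshold. In 4 of the 9 the groups did not overlap. Over the 8352 genes tested in the series 4.25% rose and 6.93% fell, 11.2% in either direction, and the groups did not overlap in 18.5%. The genes were chosen with earlier results of these data known, so nothing is read from a difference between these shares. In unscaled values 1 member rose (Ephx1) and 1 fell (Txn1), where 0.539% of all genes rose and 12.3% fell. The median log2 fold change of the 9 genes was 0.16, against 0.01 over all genes tested.

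**Figure D1:**
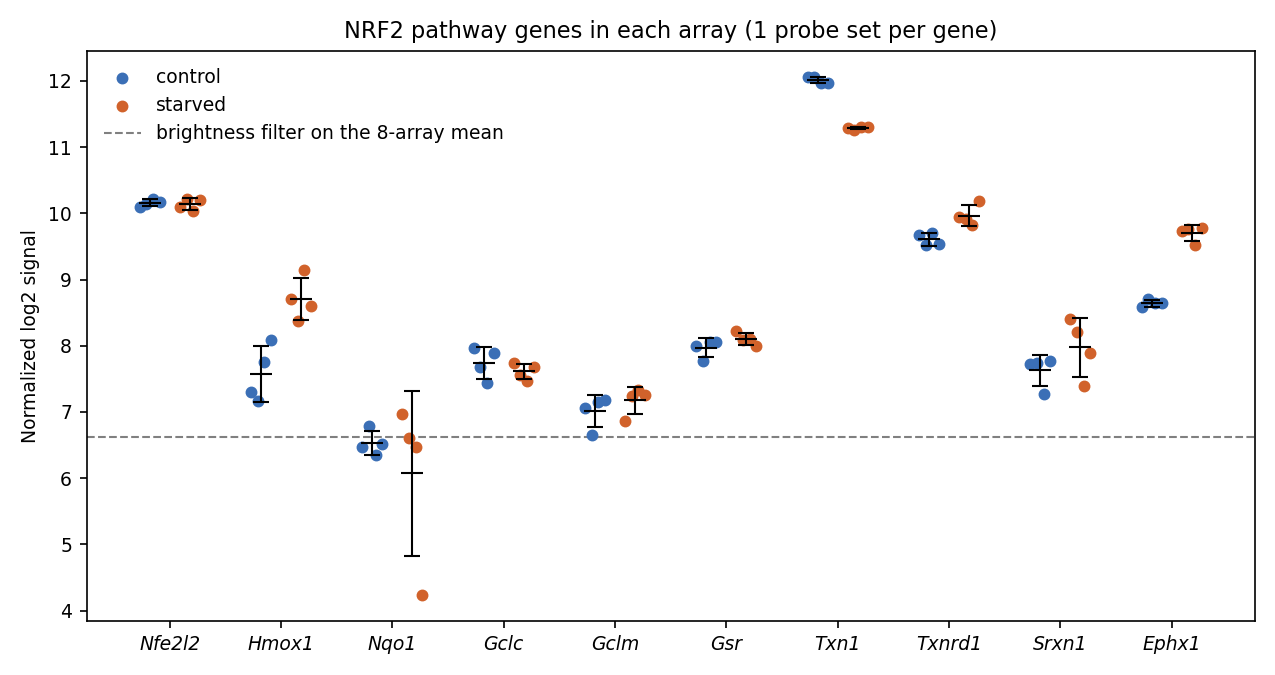
Normalized log2 signal of the 10 genes in each of the 8 arrays, 1 point per array, with the mean and SD of each group (n = 4) as bars and the brightness filter (log2 6.61, applied to the mean over 8 arrays) as a dashed line. Starved points lie above all control points for Hmox1, Txnrd1 and Ephx1 and below them for Txn1, while those of Nfe2l2, Gclc, Gclm, Gsr and Srxn1 overlap; Nqo1 lies at the filter, with starved H far below it.

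The upstream sequences of some of these genes are shown for the element that NRF2 binds. RefSeq promoters of build GRCm38.p6 were found for 7 of the 10 genes: Nfe2l2, Nqo1, Gclm, Txn1, Txnrd1, Srxn1 and Ephx1, with 3 start sites for Txnrd1. The 250 bases before each start were searched on both strands for the core of the antioxidant response element (TGACNNNGC), the AP-1 site (TGANTCA), which can overlap that core, the core of the C/EBP-ATF element (TGATGNAA) and the E-box (CACGTG). The sequences below are those of 2 genes that rose, 1 that fell and 2 that did not pass, written 5' to 3' along the gene in lower case, with matches to the antioxidant response element core, on either strand, in capitals.
Ephx1 promoter, GRCm38.p6, chr1:181017570-181017819, minus strand: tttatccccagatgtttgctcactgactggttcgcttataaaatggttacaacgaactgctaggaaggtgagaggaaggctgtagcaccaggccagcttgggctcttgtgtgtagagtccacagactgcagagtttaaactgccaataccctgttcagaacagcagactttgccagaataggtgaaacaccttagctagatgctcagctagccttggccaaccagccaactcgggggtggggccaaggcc
Txnrd1 promoter, GRCm38.p6, chr10:82858956-82859205, plus strand: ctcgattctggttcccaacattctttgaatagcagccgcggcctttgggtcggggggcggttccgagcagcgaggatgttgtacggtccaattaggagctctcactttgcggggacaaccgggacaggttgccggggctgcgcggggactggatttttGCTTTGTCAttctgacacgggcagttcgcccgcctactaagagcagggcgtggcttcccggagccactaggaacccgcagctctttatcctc
Txn1 promoter, GRCm38.p6, chr4:57956412-57956661, minus strand: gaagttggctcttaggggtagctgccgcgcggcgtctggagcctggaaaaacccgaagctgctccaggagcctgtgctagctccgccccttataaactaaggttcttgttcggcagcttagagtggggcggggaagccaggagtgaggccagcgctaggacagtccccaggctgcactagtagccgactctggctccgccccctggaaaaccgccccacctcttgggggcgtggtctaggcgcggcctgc
Gclm promoter, GRCm38.p6, chr3:122245307-122245556, plus strand: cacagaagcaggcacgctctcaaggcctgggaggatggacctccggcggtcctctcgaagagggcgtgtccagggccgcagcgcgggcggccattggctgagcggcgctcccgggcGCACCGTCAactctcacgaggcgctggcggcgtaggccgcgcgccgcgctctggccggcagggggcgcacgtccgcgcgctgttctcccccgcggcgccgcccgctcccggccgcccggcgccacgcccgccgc
Nfe2l2 promoter, GRCm38.p6, chr2:75704664-75704913, minus strand: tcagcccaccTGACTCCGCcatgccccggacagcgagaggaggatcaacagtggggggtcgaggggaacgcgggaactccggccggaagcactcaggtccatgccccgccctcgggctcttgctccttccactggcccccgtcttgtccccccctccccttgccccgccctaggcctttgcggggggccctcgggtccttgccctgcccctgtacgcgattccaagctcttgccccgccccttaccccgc
The core was found in 3 of the 7 genes and in 3 of their 9 promoters. It lay 134 bases before the start of Gclm, 92 bases before the second start of Txnrd1 and 240 bases before that of Nfe2l2. Of these genes Txnrd1 rose and the other two did not pass, whereas Ephx1, which rose, and Txn1, which fell, had no match in this window. The core occurs in 10.2% of the 32851 promoters of the table over the same length. Srxn1 had 2 matches to the AP-1 site, 102 and 45 bases before its start, a motif in 6.75% of promoters. The match at 45 bases is followed by GC and differs from the antioxidant response element core as searched only in having G for C. Forms of the element with that G were not searched, so the count of 3 genes holds only for the form given above. None of the 7 genes had a match to the C/EBP-ATF core (3.45% of promoters) or the E-box (6.02%). A match describes letters in a window and is not evidence of binding, and elements farther away were not searched.

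Nfe2l2, the regulator, was bright and steady. Its log2 signals were 10.09, 10.15, 10.22 and 10.18 in the controls (A to D) and 10.10, 10.22, 10.03 and 10.20 in the starved arrays (E to H). The groups overlapped almost completely. The log2 fold change was -0.02 ± 0.08 (limma, adjusted p = 0.893), with a 95% confidence interval from -0.20 to 0.15. In unscaled values it stood at -0.42 (adjusted p = 0.157), close to the shift of all probe sets there.

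Hmox1 encodes heme oxygenase-1, the inducible enzyme that opens the heme ring and releases iron, carbon monoxide and biliverdin. Its log2 signals were 7.30, 7.17, 7.76 and 8.09 in the controls and 8.70, 8.38, 9.14 and 8.60 in the starved arrays. The lowest starved array, F, lay above the highest control, D, by 0.29. The rise of 1.13 ± 0.22 is a 2.18-fold change (adjusted p = 0.00728). Hmox1 was also the most spread of the called members, with SDs of 0.42 in controls and 0.32 in starved arrays. Without control B the rise was 0.98 (adjusted p = 0.0135). In unscaled values it was 0.77 and did not pass (adjusted p = 0.0690). Macrophages express Hmox1 strongly. Of 10 macrophage markers 4 were bright enough to be tested and 0 passed as higher or lower, and the summed intensity of the list was 891 to 1619 in controls and 887 to 1162 in starved arrays, unscaled, with 0 of 10 markers at 0 on all arrays. In normalized values Adgre1 stood at 0.32, Cd68 at 0.33, Csf1r at -0.07 and Cd14 at -0.29. The samples were C2C12, and these signals do not show that macrophages were present. Any part of such cells in the Hmox1 result was not tested.

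Gclc, Gclm and Gsr, the members that make and recycle glutathione, did not pass. Gclc and Gclm encode the catalytic and the modifier subunit of glutamate-cysteine ligase, the first step of glutathione synthesis. Gclc signals were 7.96, 7.68, 7.43 and 7.89 in controls and 7.74, 7.56, 7.47 and 7.67 in starved arrays (log2 fold change -0.13 ± 0.15, limma adjusted p = 0.657). The starved arrays lay inside the range of the controls. The other probe set of Gclc stood at -0.17 ± 0.15 (adjusted p = 0.535), so both gave the same picture. Gclm signals were 7.06, 6.65, 7.15 and 7.18 in controls and 6.87, 7.24, 7.33 and 7.26 in starved arrays (0.16 ± 0.18, adjusted p = 0.648). The 95% confidence interval of Gclm ran from -0.23 to 0.55, which leaves room for a change of the size seen in Txnrd1. Gsr, which regenerates reduced glutathione with NADPH, had signals of 7.99, 7.77, 8.06 and 8.06 in controls and 8.23, 8.09, 8.10 and 8.00 in starved arrays (0.14 ± 0.12, adjusted p = 0.539). The second Gsr probe set stood at -0.07 ± 0.14 (adjusted p = 0.830). The 95% intervals of Gsr, from -0.12 to 0.39 and from -0.37 to 0.24, both lie below the rises of Hmox1 and Ephx1.

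By their brightest probe sets Txn1 and Txnrd1 moved apart. Txn1, the small disulfide reductase that passes electrons to peroxiredoxins and ribonucleotide reductase, had the lowest SDs of the 9 representing probe sets, 0.05 in controls and 0.02 in starved arrays. Its log2 signals were 12.06, 12.06, 11.97 and 11.97 in controls and 11.29, 11.27, 11.31 and 11.30 in starved arrays. The groups were separated by 0.67, far more than the range within either. Txn1 fell by 0.73 ± 0.06, which is 1.66-fold lower (adjusted p = 1.12e-05), and it fell by 1.09 in unscaled values. In deposited intensities the mean went from 4706 to 2210. The other Txn1 probe set did not follow. Its signals were 8.35, 8.48, 8.08 and 8.58 in controls and 9.14, 8.51, 8.54 and 8.51 in starved arrays, a log2 fold change of 0.30 ± 0.17 (adjusted p = 0.303). Starved E was the highest, and the groups overlapped. In unscaled values this probe set stood at -0.06, so the signs of the probe sets differed only after scaling. With the mean of both probe sets Txn1 stood at -0.21 and its call was lost (adjusted p = 0.201). The annotation used here does not say which part of the transcript each probe set reads.

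Txnrd1 encodes the selenoprotein that reduces thioredoxin with NADPH. The signals of its brightest probe set were 9.67, 9.52, 9.71 and 9.53 in controls and 9.95, 9.92, 9.82 and 10.18 in starved arrays. The groups were separated by 0.11. The rise of 0.36 ± 0.10, or 1.28-fold, had an adjusted p of 0.0437. This call was kept in 7 of 19 other settings. Every other scaling ended it, as did testing with no filter or no trend, and so did leaving out any 1 array other than starved G, control B included (0.33, adjusted p = 0.0796). In unscaled values it stood at -0.04. A second, dim Txnrd1 probe set had signals of 5.11, 6.79, 6.45 and 6.95 in controls and 7.42, 7.66, 7.23 and 7.21 in starved arrays. These groups did not overlap either, but control A was low, and the log2 fold change of 1.05 ± 0.35 did not pass (adjusted p = 0.0886). With the mean of both tested probe sets the rise was 0.71 (adjusted p = 0.0218). The remaining probe set was too dim to be tested, with intensities of 6.5 to 43.3.

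Srxn1 encodes sulfiredoxin, which repairs overoxidized peroxiredoxins. Its 4 tested probe sets all stood above 0, at 0.35 ± 0.21, 0.74 ± 0.31, 0.58 ± 0.18 and 0.43 ± 0.18 from the brightest to the dimmest, and 0 of 4 passed (adjusted p = 0.364, 0.179, 0.0628 and 0.173). The brightest had signals of 7.73, 7.74, 7.28 and 7.78 in controls and 8.40, 8.21, 7.40 and 7.89 in starved arrays. Starved G fell inside the control range there. In the probe set at 0.58 the groups did not overlap, with 6.74 to 7.23 in controls and 7.35 to 7.91 in starved arrays. With the mean of the 4 probe sets Srxn1 was called higher (0.53, adjusted p = 0.0343). In unscaled values the brightest probe set stood at 0.00.

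Ephx1, the microsomal epoxide hydrolase, gave the clearest rise. Its log2 signals were 8.58, 8.71, 8.65 and 8.65 in controls and 9.74, 9.77, 9.52 and 9.77 in starved arrays. The lowest starved array, G, lay 0.81 above the highest control, B. The rise of 1.05 ± 0.10 is a 2.08-fold change (adjusted p = 3.89e-05), and it passed in all 19 other settings, at 0.67 in unscaled values (adjusted p = 0.0460). Ephx1 intensities were 376 to 522 in controls and 607 to 951 in starved arrays, so the deposited values of the groups did not overlap even though the starved arrays were dimmer overall.

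Nqo1 encodes a quinone reductase that is often read as a marker of NRF2 activity, and it was near the lower limit of these arrays. Its intensities were 115, 89.8, 72.7 and 95.9 in the controls and 82.7, 76.9, 66.5 and 7.4 in the starved arrays. Starved H was far below the other 7 arrays. The mean log2 signal of 6.30 was below the filter of 6.61. When the filter was dropped, the log2 fold change was -0.46 ± 0.51 (adjusted p = 0.722). The direction of Nqo1 was not resolved at this signal.

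**Figure D2:**
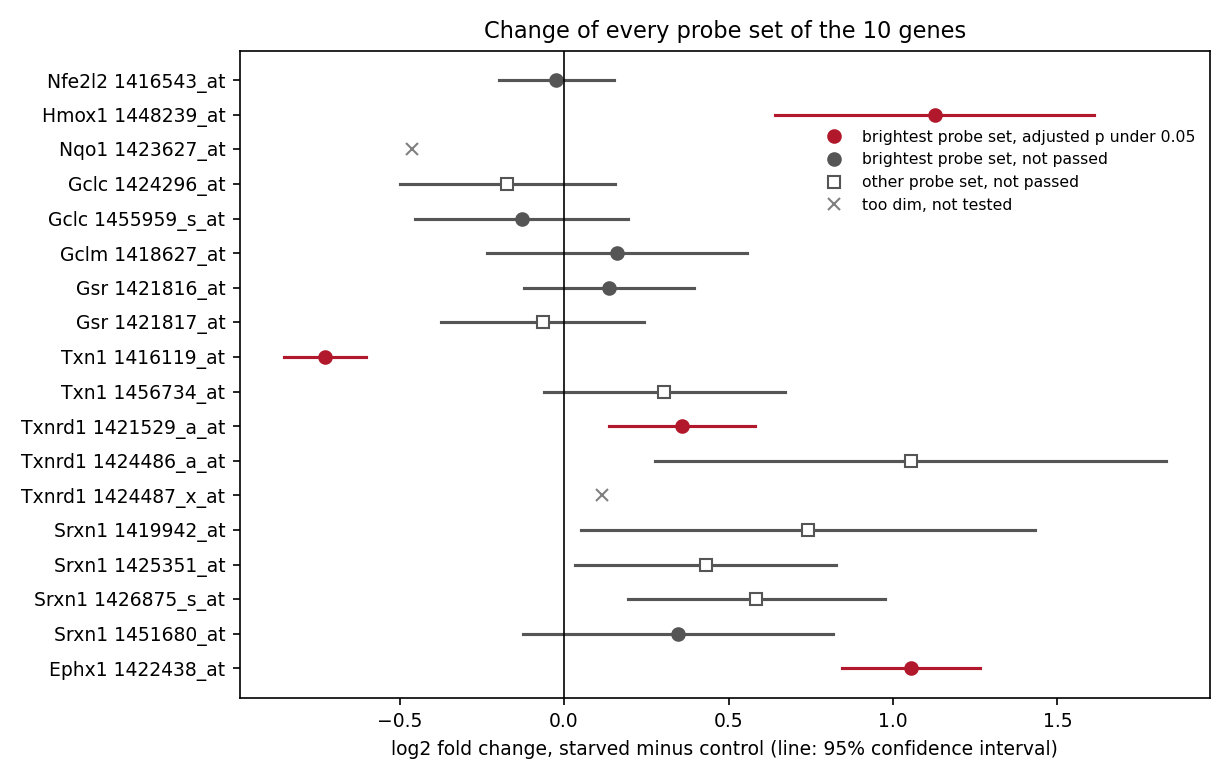
Log2 fold change (starved minus control) of all 18 probe sets of the 10 genes, with the 95% confidence interval from limma for the 16 that were tested; red points had an adjusted p under 0.05, filled circles are a gene's brightest probe set, open squares its others and crosses those too dim to be tested. The 2 tested Txn1 probe sets lie on opposite sides of 0, and all 4 Srxn1 probe sets lie above it.

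A member's change was next set against that of a related gene on the same array, which removes most of the effect of scaling between arrays. Probe sets differ in efficiency, so the level of such a log2 ratio has no meaning and only its change was read. The 7 gene pairs were chosen after their values were seen, so their values are a description with no test. Hmox1 changed relative to Hmox2, the constitutive heme oxygenase, by 1.20 (ratios of -2.08 to -0.92 in controls and -0.64 to 0.07 in starved arrays). Ephx1 changed relative to Ephx2, the soluble epoxide hydrolase, by 1.11 (1.47 to 1.79 in controls and 2.33 to 2.96 in starved arrays). In both pairs the groups did not overlap, and in unscaled values the changes were 1.23 and 1.02.

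The ratios that hold Txn1 depended on which of its tested probe sets was read. With the brighter one, Txn1 over Txn2, its mitochondrial counterpart, changed by -1.11 (1.70 to 2.16 in controls and 0.78 to 0.93 in starved arrays), and Txnrd1 over its substrate Txn1 changed by 1.09. With the other Txn1 probe set these changes were -0.08 and 0.05, and the groups overlapped. Among the remaining pairs the change was 0.04 for Txnrd1 over mitochondrial Txnrd2, 0.29 for Gclm over Gclc and -0.45 for Nfe2l2 over Nfe2l1, a related factor that controls proteasome genes, with overlapping groups in each.

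**Figure D3:**
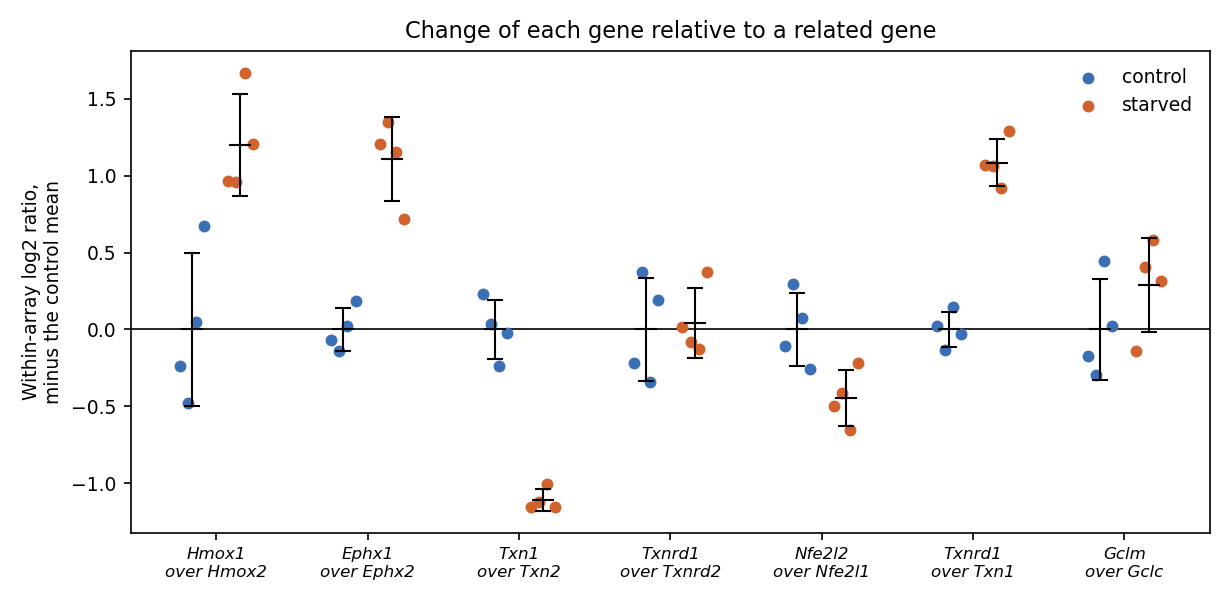
Within-array log2 ratio of 7 gene pairs in each array, minus the mean of the controls, with the mean and SD of each group (n = 4) as bars. Starved points of Hmox1 over Hmox2, Ephx1 over Ephx2 and Txnrd1 over Txn1 lie above all controls and those of Txn1 over Txn2 below (Txn1 by its brighter probe set), while the groups overlap for Txnrd1 over Txnrd2, Nfe2l2 over Nfe2l1 and Gclm over Gclc.

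Other genes of the pathway, in 9 lists of 154 genes, changed in small numbers. Of 107 tested genes 6 rose, 7 fell and 94 missed the threshold, shares near the background, with a median log2 fold change of -0.05. In unscaled values 3 were higher and 16 lower, where 0.539% of all genes rose and 12.3% fell. Among the 10 tested genes that control NRF2, Nfe2l1 rose by 0.42 ± 0.11 (adjusted p = 0.0340), with overlapping groups. Its call was lost with each other scaling (0.08 in unscaled values), without a filter or a trend, and when control A or C or starved E, F or G was left out. Keap1 (-0.08 ± 0.10), Bach1 (-0.11 ± 0.14), a repressor of Hmox1, and the small MAF gene Mafg (0.22 ± 0.10) did not pass. Sqstm1, the autophagy receptor that can sequester KEAP1, stood at 0.36 ± 0.11 with an adjusted p of 0.0599, and it passed without control B (0.24, adjusted p = 0.0236), which had the lowest control signal, with a stricter brightness filter and with array weights.

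Of 13 tested genes of glutathione synthesis and use outside the members, 1 rose and 2 fell, where 4.25% of all genes rose and 6.93% fell. Gss, which completes glutathione synthesis, fell by 0.56 ± 0.12 (adjusted p = 0.0132), and Gpx1, the main cytosolic glutathione peroxidase, fell by 0.55 ± 0.08 (adjusted p = 0.00150). Deposited Gss intensities were 921 to 1191 in controls and 489 to 586 in starved arrays. Chac1, which degrades glutathione, rose by 1.73 ± 0.09 (adjusted p = 1.03e-06). Slc7a11, the cystine importer, was too dim to be tested. Of 13 glutathione S-transferases 1 fell and 0 rose: Gstm2 fell by 0.49 ± 0.14 (adjusted p = 0.0485), a call lost when any 1 array was left out and under 4 other settings.

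In the list of thioredoxins, peroxiredoxins and methionine sulfoxide reductases 3 of 13 genes rose and 1 fell, against 4.25% and 6.93% over all genes. In unscaled values 1 was higher and 1 lower, where 0.539% of all genes rose and 12.3% fell. Sesn2, a stress-induced sestrin, rose by 1.57 ± 0.19 (adjusted p = 2.75e-04), and its other probe set by 0.61 (adjusted p = 0.0316). Txnip, which binds and inhibits thioredoxin, rose by 0.77 ± 0.12 (adjusted p = 0.00212), although in unscaled values it stood at 0.37 and did not pass (adjusted p = 0.250). The other Txnip probe set stood at 0.96 and did not pass (limma, adjusted p = 0.184), with control B low at 6.86. Txn2 rose by 0.38 ± 0.09 (adjusted p = 0.0228), and all 3 of its probe sets passed, although in unscaled values Txn2 stood at -0.02. The call of Txn2 was also lost with the other 2 scalings, without a trend, and without control A or D or starved E, F or H. Sesn3 fell by 0.55 ± 0.13 (adjusted p = 0.0199), a call lost without control C or starved F. Prdx1 had no probe set with a single symbol.

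Of 19 tested genes of detoxification and export 3 fell and 0 rose, against 4.25% higher and 6.93% lower over all genes, and 7 of the 19 stood above 0. In unscaled values 5 were lower, where 12.3% of all genes fell. Ptgr1, an enzyme that inactivates prostaglandins and reactive aldehydes, fell by 0.94 ± 0.11 (adjusted p = 3.29e-04), the carbonyl reductase Cbr3 fell by 0.56 ± 0.13 (adjusted p = 0.0167) and the cytochrome P450 gene Cyp1b1 fell by 0.51 ± 0.10 (adjusted p = 0.00685). Deposited Ptgr1 intensities were 675 to 1122 in controls and 247 to 421 in starved arrays. In the list named for NADPH-producing enzymes 1 of 12 tested genes rose and 11 did not pass. The 1 that rose was Mthfd2, of mitochondrial folate metabolism, by 2.35 ± 0.11 (adjusted p = 4.51e-07). NADPH was not measured, so nothing is read from this on its supply. Me1, malic enzyme, stood at 0.03 ± 0.18, and G6pdx had no probe set with a single symbol.

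No tested gene passed among 11 of heme metabolism and ferritin, 6 that remove superoxide and peroxide and 10 of selenoprotein synthesis. Fth1, the ferritin heavy chain that stores iron, stood at 0.15 ± 0.05 without overlap between groups (limma, adjusted p = 0.0848). The other Fth1 probe set stood at -0.01 (adjusted p = 0.952), with overlapping groups. Sod1 stood at -0.15 ± 0.08 (adjusted p = 0.275), though called lower in unscaled values (-0.52, adjusted p = 0.0312). Cat stood at -0.30 ± 0.14 (adjusted p = 0.239), and its other probe set at 0.16 (adjusted p = 0.814). Blvra, which encodes biliverdin reductase A, stood at -0.29 ± 0.13 and did not pass (limma, adjusted p = 0.218). Blvrb, which encodes biliverdin reductase B, was too dim to be tested. Without control B the counts of 7 of the 9 lists were the same, while the NRF2 control list had 2 genes higher and the glutathione S-transferases had 0 lower.

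**Figure D4:**
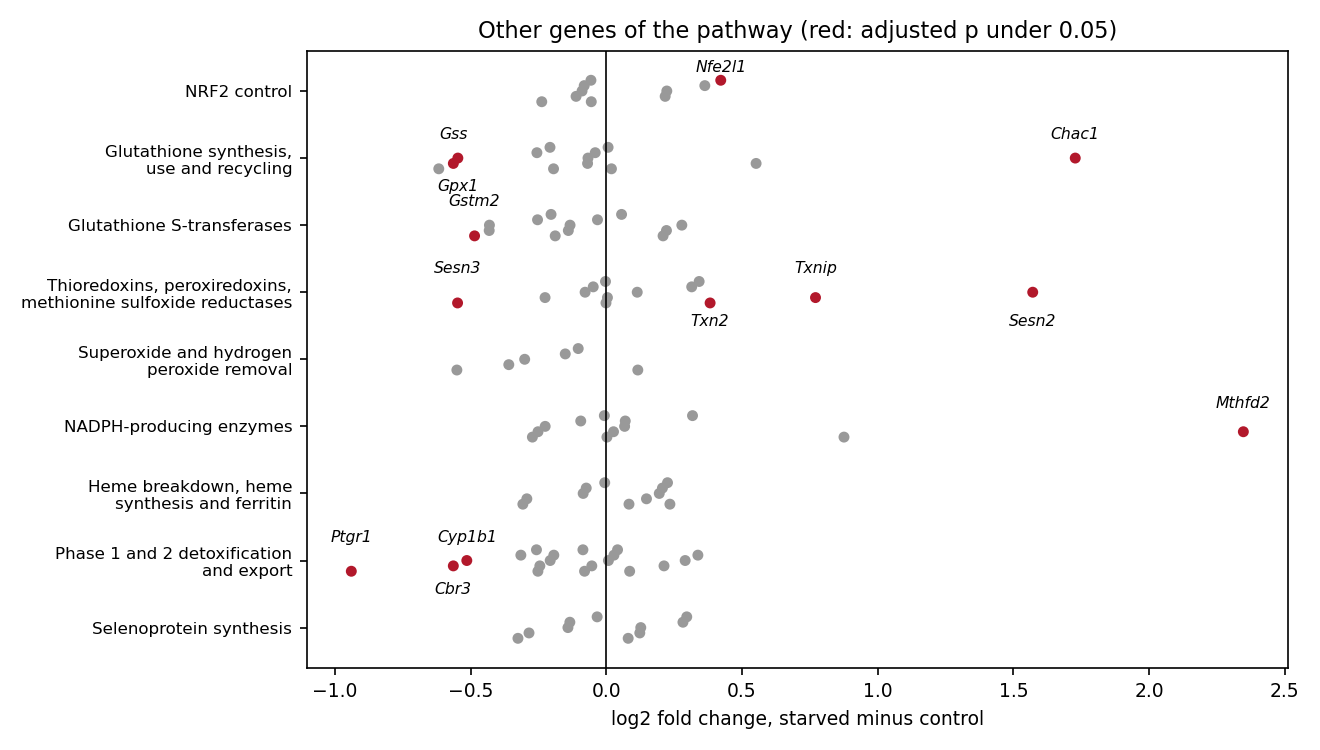
Log2 fold change (starved minus control) of the tested genes of 9 pathway lists that hold no member, 1 point per gene, vertical position within a list being arbitrary. Red points, named, had an adjusted p under 0.05 (limma), 6 above 0 and 7 below.

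The settings of the processing moved the members unequally. Ephx1 passed in 19 of 19 alternatives, Hmox1 and Txn1 in 18 of 19, Txnrd1 in 7 of 19 and Srxn1 in 1 of 19. Nfe2l2, Gclc, Gclm and Gsr passed in 0 of the settings that tested them, 18 for Gclc and Gclm and 19 for the others.

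**Figure D5:**
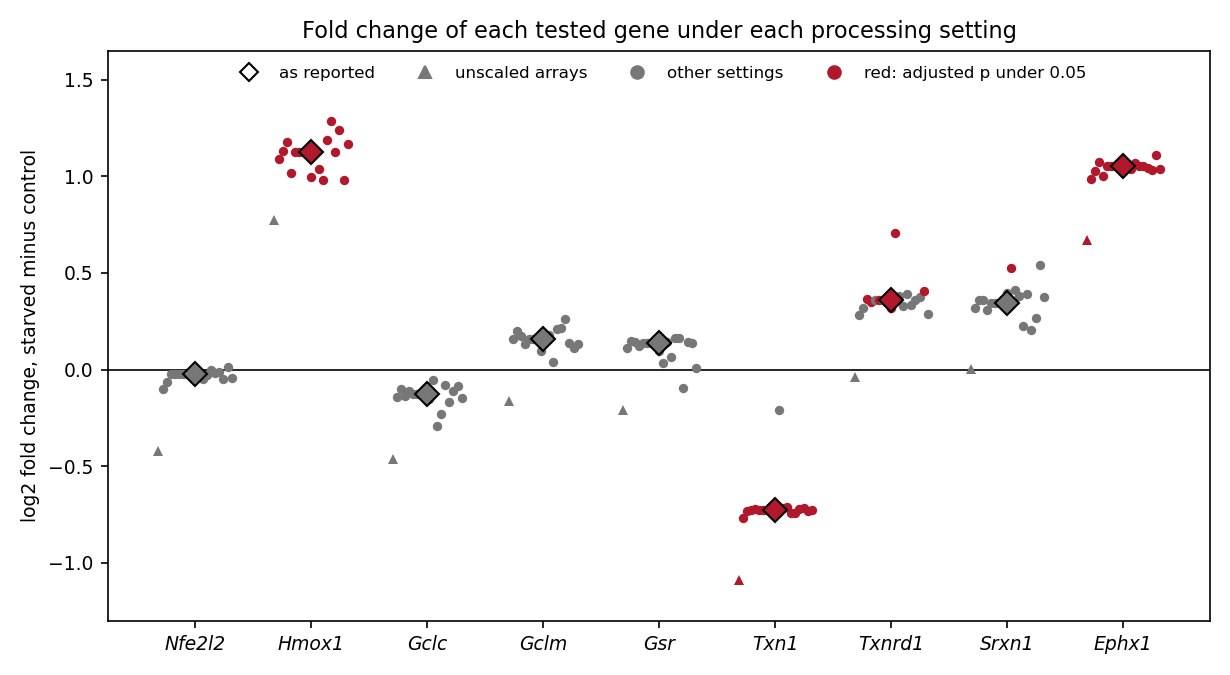
Log2 fold change (starved minus control) of the 9 tested genes as reported (diamonds), with unscaled arrays (triangles) and under the other alternatives, each array left out in turn included (circles), with red for an adjusted p under 0.05. Unscaled values lie lower for every gene, and the isolated Txn1 circle at -0.21 is the mean of its probe sets.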

How the data were processed

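Total RNA of 4 control and 4 starved C2C12 samples was hybridised to Affymetrix arrays, 1 per sample. Groups and letters come from the labels; letters differ between groups and pair nothing. The deposited table holds 1 intensity per probe set and array on a linear scale, and the steps by which the authors made it were not found in the labels. Intensities, with values below 0 set to 0, were offset by 10.9 (their 10th percentile), log2 transformed and quantile normalized with limma 3.58.1 in R 4.3.3. Control probe sets (64 of 22690) were left out, and 13575 whose mean exceeded log2 6.61, the 40th percentile, were fitted with lmFit and eBayes with an intensity trend. Quantile normalization assumes like signal distributions in both groups.

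Probe sets were named from a 2016 platform annotation: 20380 had 1 symbol, 691 several and 1555 none. Promoters are from RefSeq. Members, lists and markers were chosen with earlier results of these data known. All members were named, and from each list the genes that passed plus a panel of 13 genes and Blvra. Alternatives changed scaling, offset, filter, variance model, probe set choice or left out 1 array. The fit was also run on simulated data, but the outcome is not given here and is not used as support for the calls. The number of arrays limits the precision. Plotting used matplotlib 3.10.9 (Python 3.11.15).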

Additional observations from a re-analysis of the deposited data

Results flagged for a closer look

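Some arrays stood far from the other 3 of their group, judged by the gap to the nearest array as a share of the group's range. Chance gives such a gap in about 1 of 20 groups, and 7 of the 78 groups examined had one. Among members, control B was high at 8.38 and starved H low at 7.76 for the dimmer Gsr probe set, starved E was high at 9.14 for the dimmer Txn1 probe set, control C was low at 7.28 for the brightest Srxn1 probe set, and starved G was low at 9.52 for Ephx1. Control B was low at 11.34 for Sqstm1 and high at 11.75 for Sod1. Control B is the array with the raised Gapdh 3' to 5' ratio, and its part in these values was not tested.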

How the results depend on the processing

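Leaving the arrays unscaled had the largest effect: 1 member was then higher instead of 3, pathway genes were 3 higher and 16 lower instead of 6 and 7, and all genes were 45 higher and 1027 lower (4.20% higher) instead of 355 and 579 (38.0%). In unscaled values these signs turned: Gclm -0.16, Gsr -0.21, Txnrd1 -0.039, Mafg -0.16, Txn2 -0.020, Me1 -0.35 and Fth1 -0.086, none of which passed there, and the untested ratio of Txnrd1 to Txnrd2 (-0.032). The median of all probe sets was lower in those values; the cause of single changes was not tested. Median centring gave 217 genes higher (28.1%) and Me1 at -0.026, and array weights gave Me1 at -0.046. With probe sets averaged per gene 0 members were lower and Keap1 stood at 0.10, because the probe sets of Txn1 and of Keap1 differ in sign. Leaving out 1 array at a time gave Nfe2l2 from -0.051 to 0.012, Gsr from -0.094 to 0.17 (without starved E its other probe set became the brightest), Me1 from -0.092 to 0.16 and 226 to 370 genes higher, the lowest without starved F. No paired analysis was possible because the groups share no replicate letters. Low signal limits Nqo1, Slc7a11 and Blvrb.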
